A study of Mus musculus with 12 samples.

Results

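Camp, Lcn2, Saa1, Saa2, Saa3, Slpi and Steap4 are 7 genes of antimicrobial, acute phase and metal handling proteins, read here in 3T3L-1 pre-adipocytes kept with or without macrophages. They were taken as every probe whose transcript accession belongs to those genes, which gave 8 probes of 39429 on the array and 7 of 20886 named genes. Camp had 2 probes and each of the others 1. All 7 passed the filter on dim probes, as did 13837 genes in all, and 13829 genes could be tested. The genes were chosen with results of these data known, so the counts over them describe them and carry no test of the group.

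Each of 12 dual-colour arrays compared RNA of 3T3L-1 cells that had shared a well with Raw264.7 cells, a mouse macrophage line held in a porous insert (Cy5), with RNA of 3T3L-1 cells grown alone (Cy3). 3T3L-1 is an established mouse embryo fibroblast line that can turn into fat cells, and RNA came from the lower well. Both sides of an array had the same hormone and the same time, with 100 µM serotonin (S), 100 µM cortisol (C), 100 µM of each (CS) or no hormone (NT) for 6, 24 or 48 h. Each condition had a single array in 1 dye orientation, so a probe that takes up the dyes unequally carries that into every ratio. Each time was run on its own slide, so time and slide cannot be told apart. Gene values are log2 ratios of co-culture over alone with the standard error of a limma fit to all 12 arrays, in which the 4 treatments of a time stand in for replicates. Their p-values therefore measure the spread left between these arrays and not between separate cultures. Calls required an adjusted p (Benjamini-Hochberg, over all genes) under 0.05 together with a change of at least 1.5-fold.

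These proteins belong to the innate response of epithelia, liver, neutrophils and fat. Camp encodes the only mouse cathelicidin, a peptide that lyses bacteria, and Lcn2 a lipocalin that withholds iron by binding bacterial siderophores. Saa1 and Saa2 encode the acute phase serum amyloid A proteins made in quantity by liver, whereas Saa3 is made by macrophages and adipocytes of the mouse. Slpi is a secreted inhibitor of neutrophil elastase and related proteases. Steap4 is a metalloreductase of the cell surface and endosomes that is known from inflamed fat tissue. Transcription of such genes is commonly driven by C/EBP and NF-kB factors downstream of cytokine receptors.

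The stretches before the gene starts are shown for the genes whose values separated most clearly. Camp lies at chr9:109847377-109849456, Saa1 at chr7:46740497-46743181, Saa2 at chr7:46751833-46754313 and Steap4 at chr5:7960472-7982213 (RefSeq, GRCm38.p6). Lcn2 (chr2:32384637-32387739), Saa3 (chr7:46711998-46719615) and Slpi (chr2:164354070-164356507) are not shown as sequence. The 250 bases upstream of each start, read 5′ to 3′ on the gene's own strand, are chr9:109849457-109849706 (minus strand) for Camp, chr7:46742981-46743230 (minus) for Saa1, chr7:46751583-46751832 (plus) for Saa2 and chr5:7960222-7960471 (plus) for Steap4. The Saa1 window precedes a transcript start that lies inside the annotated span of the gene. Capitals mark matches, on either strand, to the C/EBP motif TTGCNNAA and to the NF-kB consensus. The motifs were picked after the windows had been seen.
Camp: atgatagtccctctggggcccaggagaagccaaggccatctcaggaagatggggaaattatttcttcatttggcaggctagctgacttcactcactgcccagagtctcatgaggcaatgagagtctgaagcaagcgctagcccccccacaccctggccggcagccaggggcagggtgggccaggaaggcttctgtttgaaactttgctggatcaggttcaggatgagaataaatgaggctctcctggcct
Saa1: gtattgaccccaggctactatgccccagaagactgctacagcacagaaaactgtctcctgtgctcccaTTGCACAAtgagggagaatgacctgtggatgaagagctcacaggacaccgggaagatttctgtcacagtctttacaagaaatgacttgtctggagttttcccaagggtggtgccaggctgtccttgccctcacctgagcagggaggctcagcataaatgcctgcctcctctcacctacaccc
Saa2: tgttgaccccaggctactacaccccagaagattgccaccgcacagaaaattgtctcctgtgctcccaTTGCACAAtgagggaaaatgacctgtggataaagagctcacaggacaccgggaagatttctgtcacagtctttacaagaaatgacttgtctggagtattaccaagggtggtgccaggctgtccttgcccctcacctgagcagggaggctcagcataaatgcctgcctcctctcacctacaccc
Steap4: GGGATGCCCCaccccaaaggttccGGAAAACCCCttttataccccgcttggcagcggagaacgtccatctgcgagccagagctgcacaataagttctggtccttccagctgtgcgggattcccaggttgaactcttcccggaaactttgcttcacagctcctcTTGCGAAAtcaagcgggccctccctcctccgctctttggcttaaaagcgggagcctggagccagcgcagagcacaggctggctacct
The Saa1 and Saa2 windows had 238 of 251 aligned columns in common (94.8%) and carried the C/EBP match at almost the same place, 182 to 175 bases before the start of Saa1 and 183 to 176 bases before that of Saa2. The Steap4 match lay 87 to 80 bases before the start, and its 2 NF-kB matches, which do not overlap, at 250 to 241 and 226 to 217. A C/EBP match was present in 6 of 7 windows, Camp being the exception, and in 9.57% of 32817 mouse promoter windows of this length. The windows of 1 chromosome were left out of that larger count. An NF-kB match was present in 1 of 7 windows, that of Steap4, and in 7.25% of the same 32817. A match is a description of letters, and whether a factor binds there was not measured.

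A few properties of the arrays bear on these genes. Cy5 had 19912 to 22770 probes well above background per array and Cy3 had 18395 to 21335. The label of cells grown alone was in doubt on 3 arrays: the glucocorticoid-induced gene Zbtb16 had a log2 level in Cy3 of 10.66 on the array labelled S at 6 h, 10.53 on that labelled S at 24 h and 9.18 on that labelled CS at 24 h, against 11.28 to 11.43 on the other arrays with cortisol and 8.35 to 8.71 on the other arrays without. In Cy5, Zbtb16 followed the labels, with 10.65 to 11.15 on the arrays with cortisol and 8.25 to 8.95 on those without. Results are therefore given with and without these 3 arrays where they touch a call. Of 13 fibroblast markers, 12 were above background on all arrays in both channels and Lum on 3. Of 10 adipocyte markers, Fabp4, Lpl and Pparg were above it on all arrays in both channels, and Adipoq and Lep on none. The other adipocyte markers were above it on part of the arrays.

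Camp had the highest fitted ratio of the 7 at 48 h and, at 6 and 24 h, of the 5 genes other than Lcn2 and Saa3, whose Cy5 signal was at a ceiling then. Its log2 ratio at 6 h was 1.26 on the S array, 1.16 on C, 1.26 on CS and 1.21 on NT. At 24 h it was 2.11 on S, 2.13 on C, 1.61 on CS and 1.40 on NT, and at 48 h it was 3.42 on S, 3.65 on C and 4.04 on CS, the NT spot having been left out as an outlier. The lowest value at 48 h thus lay above the highest at 24 h, and the lowest at 24 h above the highest at 6 h. In the fit, Camp was higher in co-culture by 1.22 ± 0.16 at 6 h (2.33-fold, adjusted p = 2e-04), by 1.81 ± 0.16 at 24 h (3.52-fold, adjusted p = 2.72e-05) and by 3.63 ± 0.20 at 48 h (12.4-fold, adjusted p = 9.76e-08). By size of ratio it was the 103rd highest of 13829 genes at 6 h, the 36th at 24 h and the 8th at 48 h. In bulk RNA, more cells of a type and more transcript per cell cannot be told apart.

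The second Camp probe, measured on all 12 arrays, was called higher at each time as well. At 48 h its log2 ratio was 3.65 on S, 3.84 on C, 4.28 on CS and 3.52 on NT. Its fitted ratio was 1.35 ± 0.18 at 6 h, 1.85 ± 0.18 at 24 h and 3.82 ± 0.18 at 48 h (adjusted p from limma over 17912 probes of 0.000134, 2.49e-05 and 1.76e-08). Without the 3 arrays in doubt, the brighter probe stood at 1.13 ± 0.23, 1.78 ± 0.30 and 3.65 ± 0.22, still called at each time. The growth of the ratio between 6 and 48 h was itself tested: it came to 2.41 ± 0.26 (adjusted p = 3.1e-05), and 1.82 ± 0.26 of it fell between 24 and 48 h (adjusted p = 0.000221). The difference between 24 and 6 h, 0.59 ± 0.23, was not called (adjusted p = 0.133).

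**Figure D1:**
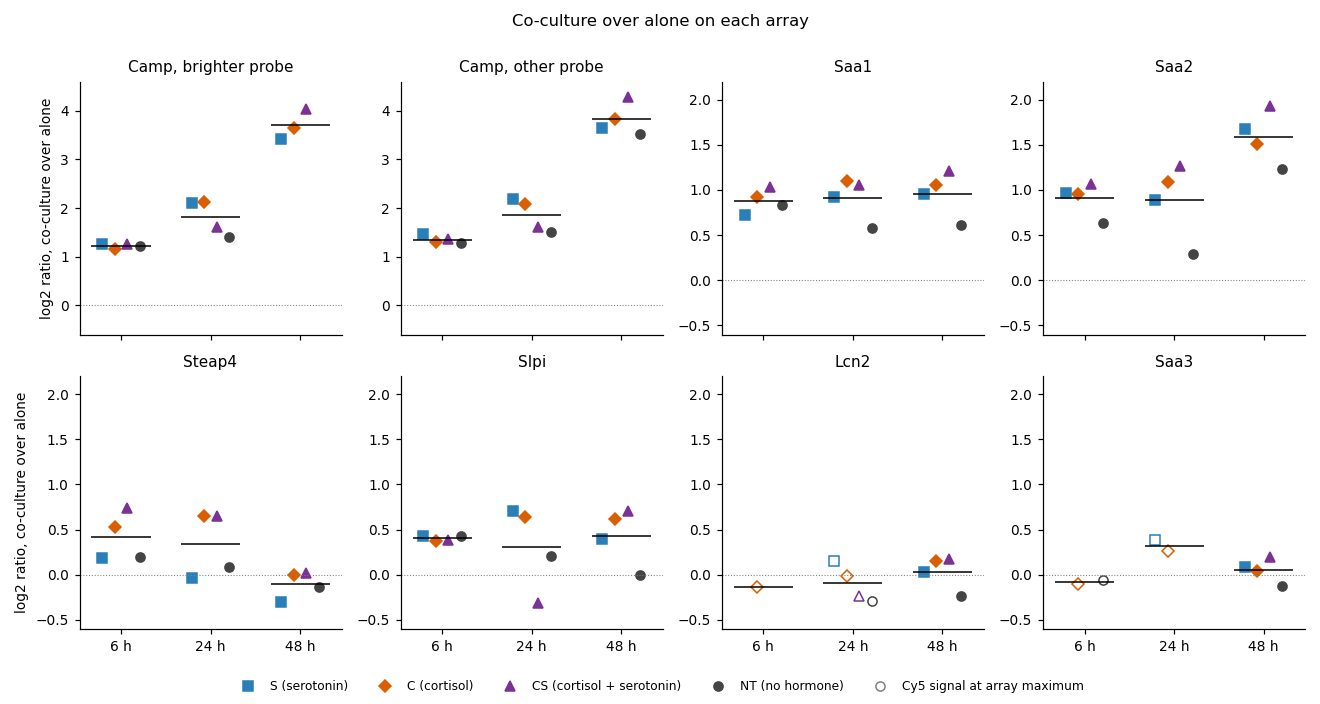
Log2 ratio of co-culture over alone (vertical axis) on each array at 6, 24 and 48 h, with symbols for the hormone and a black line at the mean of the arrays shown. Open symbols mark arrays on which the Cy5 signal of the gene sat at the highest value of the array. Camp climbed to between 3.42 and 4.28 over its 2 probes at 48 h, Saa2 lay at 1.23 to 1.93 there, and Saa1 had means of 0.87 to 0.96 at all times.

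In the single channels, Camp differed between 6 and 48 h mainly on the co-cultured side. In co-cultured cells its log2 level (normalized Cy5 intensity) was 13.94, 13.96, 13.92 and 14.24 on the S, C, CS and NT arrays of 6 h, and 15.66, 15.61 and 15.84 on the S, C and CS arrays of 48 h. In cells grown alone (Cy3) it was 12.68, 12.80, 12.66 and 13.03 at 6 h, and 12.24, 11.96 and 11.80 at 48 h. Levels of the co-cultured side at 48 h lay above all those at 6 h. For this probe, levels of the cells alone at 48 h lay below all those at 6 h, with no NT value at 48 h. The rise in co-cultured cells was 1.78 ± 0.09 (3.42-fold, adjusted p = 9.88e-07), and it was 1.82 ± 0.12 without the 3 arrays in doubt. The fall in cells alone, of -0.63 ± 0.20 (adjusted p = 0.0377), was less firm: it was -0.70 ± 0.25 without those arrays and missed the threshold (adjusted p = 0.0985). It lost its call without the S (-0.64, adjusted p = 0.0896), C (-0.47, 0.134) or CS (-0.64, 0.0768) array of 6 h and without the C (-0.68, 0.084) or CS (-0.45, 0.161) array of 48 h, by limma, and it was -0.31 with median centring of the arrays in place of loess. The second probe had Cy3 levels of 10.85, 10.84, 10.72 and 11.48 on the S, C, CS and NT arrays of 48 h, against 11.14, 11.42, 11.24 and 11.20 at 6 h. Its NT value at 48 h lay above all those at 6 h, and its means of 10.97 ± 0.34 at 48 h and 11.25 ± 0.12 at 6 h differed by less than those of the first probe. On the co-cultured side the second probe averaged 14.79 ± 0.25 at 48 h and 12.60 ± 0.10 at 6 h, with no overlap.

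Of the 7 genes, 3 (Camp, Saa1 and Saa2) were called higher in co-culture at each time and 0 were called lower. Lcn2 and Saa3 could not be read in Cy5 at 6 and 24 h, so the count there is 3 of 5 readable genes. Of all genes tested, 4.4% were called higher and 5.26% lower at 6 h. At 24 h the shares were 4.69% and 3.7%, and at 48 h they were 14.6% and 16.8%.

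Saa1 and Saa2 encode nearly identical proteins and transcripts, so a probe for 1 of them may also bind the other, and how far it does is not known from the files. Saa1 had log2 ratios of 0.72, 0.92, 1.03 and 0.83 on the S, C, CS and NT arrays of 6 h, of 0.92, 1.1, 1.06 and 0.58 at 24 h, and of 0.96, 1.05, 1.21 and 0.61 at 48 h. The 3 times overlapped throughout, and the NT array was the lowest at 24 and 48 h. The fitted ratios were 0.87 ± 0.07 at 6 h (1.83-fold, adjusted p = 1.72e-05), 0.92 ± 0.07 at 24 h (1.89-fold, adjusted p = 9.17e-06) and 0.96 ± 0.07 at 48 h (1.94-fold, adjusted p = 3.7e-07). Between 6 and 48 h the ratio of Saa1 differed by 0.08 ± 0.10, with a 95% interval of -0.14 to 0.31.

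Saa2 lay near Saa1 at 6 and 24 h and mostly above its own earlier values at 48 h. Its log2 ratios were 0.97, 0.96, 1.07 and 0.63 on the S, C, CS and NT arrays of 6 h, 0.89, 1.09, 1.27 and 0.29 at 24 h, and 1.67, 1.51, 1.93 and 1.23 at 48 h. NT was the lowest array at every time, and the NT value at 48 h lay just under the CS value at 24 h. The fitted ratios were 0.91 ± 0.08 (1.87-fold, adjusted p = 2.37e-05), 0.89 ± 0.08 (1.85-fold, adjusted p = 1.91e-05) and 1.59 ± 0.08 (3.00-fold, adjusted p = 3.25e-08) at 6, 24 and 48 h. The ratio grew by 0.68 ± 0.11 between 6 and 48 h (adjusted p = 0.000443) and by 0.70 ± 0.11 between 24 and 48 h (adjusted p = 0.000417). With the arrays centred on their medians in place of loess, the growth of Saa2 between 6 and 48 h was 0.07 (adjusted p = 0.787) and that of Saa1 was -0.69 (adjusted p = 0.00403), whereas that of Camp was still called, at 1.77 (adjusted p = 4.78e-06). The rank of the Saa2 ratio among 13829 was 227 at 6 h, 260 at 24 h and 227 at 48 h. Without the 3 arrays in doubt both genes were still called higher in co-culture at each time, Saa1 at 0.93, 0.93 and 0.96 and Saa2 at 0.91, 0.86 and 1.59.

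The growth of a ratio with time was called for 2 of the 5 readable genes, Camp and Saa2, both between 24 and 48 h and between 6 and 48 h. It was called for none of the 5 between 6 and 24 h. For Lcn2 and Saa3 no difference between times can be read from the ratio, since their values at 6 and 24 h were at the ceiling. Among all genes, 9.39% were called with a growing and 11.7% with a shrinking ratio between 24 and 48 h, 12% and 12.3% between 6 and 48 h, and 1.71% and 0.672% between 6 and 24 h. In co-cultured cells, Saa2 was higher at 48 h than at 6 h by 1.06 ± 0.08 (2.08-fold, adjusted p = 3.57e-06). With Camp, 2 of the 5 readable genes were thus called higher there, where 13.6% of all genes were called higher and 15.1% lower. In cells alone the difference for Saa2 was 0.38 ± 0.09 (adjusted p = 0.00834), under 1.5-fold. Only Camp of the 5 readable genes was called there, as lower, among 6.91% of genes called lower and 6.83% higher. Between 6 and 24 h none of the 5 was called in co-cultured cells or in cells alone. Of all genes, 5.31% were higher and 3.61% lower in co-cultured cells, and 5.58% higher and 5.6% lower in cells alone. The normalized Cy3 levels of Lcn2 and Saa3 at 6 and 24 h came from the same loess step as the ceiling values, so they are not read either.

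**Figure D2:**
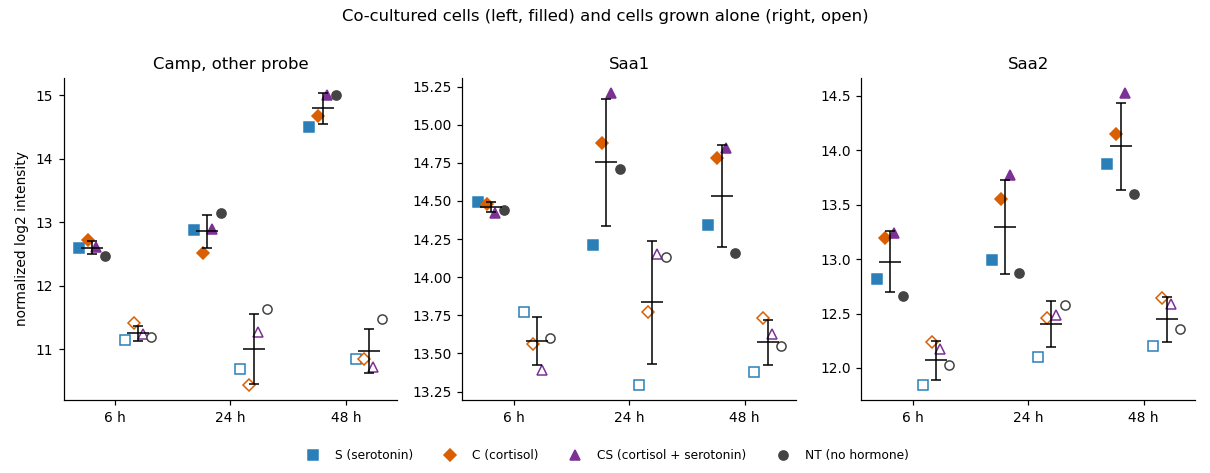
Normalized log2 intensity (vertical axis) of Camp, by its probe measured on all arrays, Saa1 and Saa2 at each time, with co-cultured cells (Cy5, filled) left of cells grown alone (Cy3, open). Black marks are the mean and SD of 4 arrays. For the Camp probe shown, co-cultured cells averaged 14.79 ± 0.25 and cells alone 10.97 ± 0.34 at 48 h.

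Steap4 was dim and differed little between the cultures, but it separated by cortisol. Its log2 ratios were 0.18, 0.53, 0.74 and 0.20 on the S, C, CS and NT arrays of 6 h, -0.04, 0.65, 0.65 and 0.09 at 24 h, and -0.30, 0.00, 0.02 and -0.14 at 48 h. At each time the arrays with cortisol lay above those without. The fitted ratios of 0.41 ± 0.06 (1.33-fold), 0.34 ± 0.06 (1.26-fold) and -0.10 ± 0.06 (0.93-fold) stayed under 1.5-fold, although the adjusted p was 0.000389 at 6 h and 0.0015 at 24 h. The same held for the difference of 48 h over 6 h, -0.52 ± 0.09 (adjusted p = 0.000616).

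Cortisol moved 2 of the 7 genes in co-cultured cells, Steap4 and Saa2, where 1.7% of all genes were called higher with cortisol and 0.911% lower. Lcn2 and Saa3 could not be read in that comparison, since their Cy5 signals at 6 and 24 h were at the ceiling. The log2 level of Steap4 in Cy5 was 8.69, 8.87 and 8.49 with C and 8.35, 8.88 and 8.84 with CS at 6, 24 and 48 h, against 8.05, 8.02 and 7.89 with S and 7.84, 8.32 and 7.87 with NT. All 6 arrays with cortisol lay above all 6 without, and Steap4 was higher by 0.69 ± 0.10 (1.61-fold, adjusted p = 0.00355). Within a time, and so within a slide, the difference was 0.57 at 6 h, 0.71 at 24 h and 0.79 at 48 h (2 arrays against 2). Leaving out the 3 arrays in doubt left it at 0.71 ± 0.15 with an adjusted p of 0.086, although their Cy5 side followed the labels by Zbtb16, Tsc22d3 and Fkbp5.

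The log2 level of Saa2 in Cy5 was 13.19, 13.55 and 14.15 with C and 13.24, 13.77 and 14.53 with CS at 6, 24 and 48 h, against 12.82, 12.99 and 13.87 with S and 12.66, 12.87 and 13.60 with NT. Within each time both arrays with cortisol lay above both without, by 0.48, 0.73 and 0.60 at 6, 24 and 48 h. The fitted difference was 0.60 ± 0.07 (1.52-fold, adjusted p = 0.000827), just past the fold threshold. It was 0.57 ± 0.10 without the 3 arrays in doubt (adjusted p = 0.051). It was 0.57 without the S array of 24 h, and 0.58 without the C or CS array of 24 h or the CS array of 48 h, which is under 1.5-fold in each case although the adjusted p-values were at most 0.00448. Saa1 differed by 0.38 ± 0.12 (adjusted p = 0.0814) and Camp by -0.21 ± 0.07 (adjusted p = 0.0866).

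In cells grown alone none of the 7 was called for cortisol, where 0.767% of all genes were called higher and 0.217% lower. Steap4 differed by 0.26 ± 0.13 (adjusted p = 0.324) and Saa2 by 0.25 ± 0.07 (adjusted p = 0.101), and without the 3 arrays in doubt by 0.34 ± 0.20 and 0.25 ± 0.11. Whether cortisol acted differently in the 2 cultures was tested on the ratio: it was larger in co-culture by 0.43 ± 0.07 for Steap4 (adjusted p = 0.183) and by 0.36 ± 0.09 for Saa2 (adjusted p = 0.414), neither past the threshold. The cells alone of the 3 arrays in doubt enter this test, and without these arrays the values were 0.37 ± 0.11 and 0.32 ± 0.14. Of 13 glucocorticoid-induced genes measured, 6 were called higher and 0 lower with cortisol in co-cultured cells, with a median of 0.56 against -0.01 for all genes, and 0 were called in cells alone, with a median of 0.53 against -0.01. The 3 arrays in doubt enter that comparison of cells alone.

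**Figure D3:**
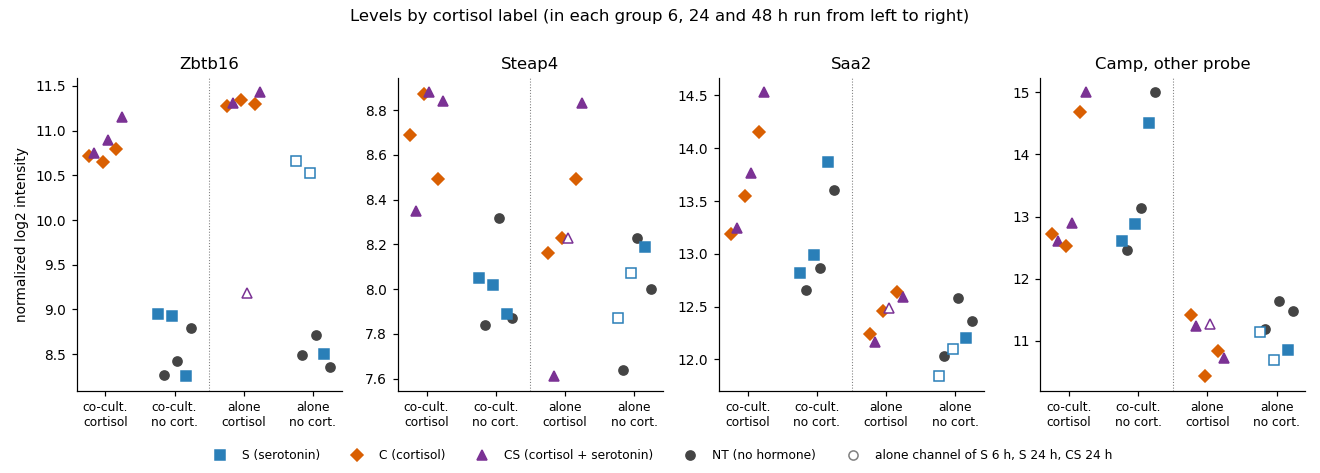
Normalized log2 intensity (vertical axis) of Zbtb16, Steap4, Saa2 and Camp (the probe measured on all arrays) by cortisol label, in co-cultured cells and in cells grown alone. Open symbols mark the cells alone of the 3 arrays in doubt. Steap4 in co-cultured cells ran between 8.35 and 8.88 with cortisol and between 7.84 and 8.32 without.

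For the ratio of co-culture over alone, limma called 0 of 7 genes, and 0% of all 13829, for S against NT, for C against NT, for CS against NT and for the effect of both hormones beyond their sum. At an unadjusted p under 0.05 there were 1808, 1350, 1265 and 1287 genes, of which 2, 4, 3 and 0 were among the 7. Without the 3 arrays in doubt there were 680, 1239, 1037 and 301 genes, with 0, 4, 3 and 0 of the 7. Lcn2 was among the 2 for S, and among the 4 for C with and without those arrays. The fits of Lcn2 and Saa3 take in Cy5 values at the ceiling. Neither gene can therefore be read in the counts given here for the ratio or for either channel. Of the readable genes, Saa2 differed most for CS over NT, by 0.71 ± 0.13 (adjusted p = 0.277 by limma). CS lay above NT at each time. Serotonin-containing over serotonin-free arrays gave 0 calls of 7 and 0% of all genes in each channel by limma. There, 910 genes in co-cultured cells and 717 in cells alone had an unadjusted p under 0.05, of which 1 and 0 were among the 7. Without the 3 arrays in doubt, all of which carry a serotonin label, there were 492 genes in co-cultured cells and fewer still in cells alone, with 0 of the 7 in either.

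Slpi was bright on both sides. Its log2 ratios were 0.43, 0.37, 0.39 and 0.43 on the S, C, CS and NT arrays of 6 h, 0.71, 0.64, -0.31 and 0.21 at 24 h, and 0.40, 0.62, 0.71 and 0.00 at 48 h. The CS array of 24 h, 1 of the 3 in doubt, stood below the rest, with a log2 level in cells alone of 17.40 against 16.14 to 16.64 on the other 3 arrays of that time. The fitted ratios were 0.40 ± 0.14 (adjusted p = 0.0265), 0.31 ± 0.14 (adjusted p = 0.0761) and 0.43 ± 0.14 (adjusted p = 0.0128) at 6, 24 and 48 h, none of them past 1.5-fold. Without the 3 arrays in doubt the ratio at 24 h was 0.48 ± 0.15.

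Lcn2 and Saa3 were among the brightest spots of the arrays, and their co-culture side could not be read at 6 and 24 h. The raw Cy5 signal of Lcn2 was 325668, 326162, 325968 and 325566 on the S, C, CS and NT arrays of 6 h, and that of Saa3 was the same on each. These values, and those of 24 h, are the highest Cy5 values of their arrays, shared by 22 to 95 spots, so the Cy5 signal of both genes was at a ceiling on 8 of 8 arrays of 6 and 24 h, although no spot of theirs carried a saturation flag. At 48 h 0 of 4 arrays were at the ceiling.

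For Lcn2 the raw signals at 48 h were 179242, 201899, 222152 and 165912 in co-cultured cells (Cy5) on the S, C, CS and NT arrays, against 120942, 124697, 133044 and 171724 in cells alone (Cy3). The normalized log2 ratios there were 0.03, 0.15, 0.17 and -0.24, and the fit gave 0.03 ± 0.07 with a 95% interval of -0.13 to 0.18. For Saa3 the raw signals at 48 h were 245710, 255336, 246154 and 224230 in co-cultured cells, against 148825, 161244, 141367 and 203094 in cells alone. Its log2 ratios were 0.09, 0.04, 0.20 and -0.12, and the fit gave 0.05 ± 0.06 with an interval of -0.08 to 0.19. For both genes the NT array was the lowest and the only one below 0. At 6 and 24 h the normalized ratios rested on 1 to 4 arrays a time after outlier spots were left out, and the loess curve there ran through spots at the ceiling, so they are read neither as folds nor as bounds.

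What was done to the bright end mattered for these genes. On the arrays that kept the spot, between 3 and 38 probes were brighter than Lcn2 or Saa3, and between 37 and 273 were brighter than Slpi. The loess step changed their log2 ratios by -2.68 to -0.95 at 6 and 24 h and by -0.64 to -0.02 at 48 h. With the arrays only centred on their medians, in place of loess, 6 of 7 genes were called higher at each time. This count is given without the share of all genes called by that scaling, so it cannot be set against one. Lcn2 and Saa3 were among the 6, with calls at 6 and 24 h that rest on spots at the ceiling. At 48 h, where both were below the ceiling, Lcn2 then had 0.80 and Saa3 0.89, and Slpi had 1.88, 1.84 and 1.00 at the 3 times. Camp, Saa1 and Saa2 were called higher at each time by either scaling.

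**Figure D4:**
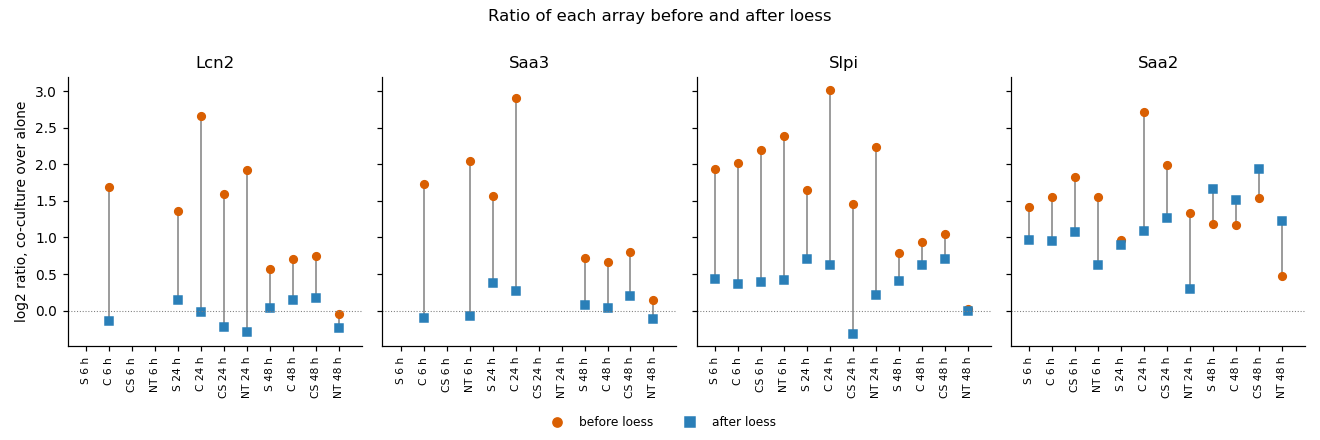
Log2 ratio of co-culture over alone (vertical axis) on each array before (orange) and after (blue) the loess step, for the bright genes Lcn2, Saa3 and Slpi and for Saa2. Arrays with no symbol had the spot left out as an outlier. The step changed Slpi by -1.96 to -1.51 at 6 h and by -0.39 to -0.02 at 48 h.

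Genes of related function, taken from lists, were read beside the 7. Over all genes, 4.4%, 4.69% and 14.6% were called higher and 5.26%, 3.7% and 16.8% lower at 6, 24 and 48 h. Of 9 measured antimicrobial and granule genes, 2, 2 and 3 were called higher and 0 lower at 6, 24 and 48 h, with medians of 0.12, -0.02 and 0.04 against -0.02, 0.00 and -0.01 for all genes. The calprotectin subunits led them, S100a8 at 1.78 ± 0.15, 1.73 ± 0.15 and 3.23 ± 0.15, and S100a9 at 0.90 ± 0.18, 0.64 ± 0.18 and 2.27 ± 0.18. The beta-defensin Defb1 was called at 48 h, with 0.81 ± 0.07. Among 6 measured protease inhibitor and related genes, 5 of the WAP domain family of Slpi and the Kunitz-type inhibitor Spint2, 2, 2 and 1 were higher and 0, 0 and 1 lower, with medians of 0.47, 0.34 and 0.08. Spint2 (0.64 at 24 h) was 1 of the 2 called at 24 h. Wfdc18, called at both these times, was at 0.80 ± 0.15 at 6 h and 0.85 ± 0.15 at 48 h, and Wfdc21 at -0.83 ± 0.08 at 48 h.

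Of 18 other acute phase genes measured, 4, 4 and 5 were higher and 0, 0 and 1 lower at 6, 24 and 48 h (4.4%, 4.69% and 14.6% of all genes were higher, and 5.26%, 3.7% and 16.8% lower), with medians of 0.26, 0.21 and 0.26. Complement factor B (Cfb) had 2.12 ± 0.14, 1.86 ± 0.14 and 1.88 ± 0.14, haptoglobin (Hp) 0.86 ± 0.09, 0.77 ± 0.07 and 1.06 ± 0.07, and the metallothionein Mt2 0.76 ± 0.15, 1.25 ± 0.19 and 1.11 ± 0.15. All 3 were higher at each time, and the orosomucoid gene Orm1 was lower at 48 h, at -0.90 ± 0.16. Of 19 upstream regulators, 5, 2 and 7 were higher and 0, 0 and 2 lower, with medians of 0.23, 0.22 and 0.49, and their share lower at 48 h was below that of all genes. Cebpb, which encodes a C/EBP factor, stood at 0.73 ± 0.08, 0.33 ± 0.08 and 1.95 ± 0.08, called at 6 and 48 h, and the NF-kB inhibitor Nfkbia at 0.83 ± 0.09, 0.75 ± 0.09 and 1.20 ± 0.09. Stat3 was called at 48 h only, with 0.96 ± 0.08.

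Of 6 lipocalin and Steap relatives measured, 0 were higher at any time and 0, 1 and 3 were lower at 6, 24 and 48 h, with medians of -0.10, -0.12 and -0.34, where 5.26%, 3.7% and 16.8% of all genes were lower and 4.4%, 4.69% and 14.6% higher. The lipocalin Apod was at -1.47 ± 0.10 at 24 h and -1.47 ± 0.10 at 48 h, and the metalloreductases Steap2 and Steap1 at -0.84 ± 0.07 and -0.60 ± 0.08 at 48 h. Of 14 iron handling genes, 5, 2 and 2 were higher and 0, 1 and 1 lower, with medians of 0.45, 0.11 and 0.26. At 48 h their share higher was close to that of all genes and their share lower was below it. The transferrin receptor Tfrc had -0.40 ± 0.12, -0.83 ± 0.12 and -1.06 ± 0.12, and the zinc and iron importer Slc39a14 0.77 ± 0.11, 0.77 ± 0.11 and 0.46 ± 0.11. Of 12 receptors and processing partners, 3, 2 and 3 were higher and 0, 1 and 3 lower, with medians of 0.22, 0.01 and -0.07. The protease gene Mmp9 was at 1.07 ± 0.13, 1.00 ± 0.13 and 0.92 ± 0.13.

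**Figure D5:**
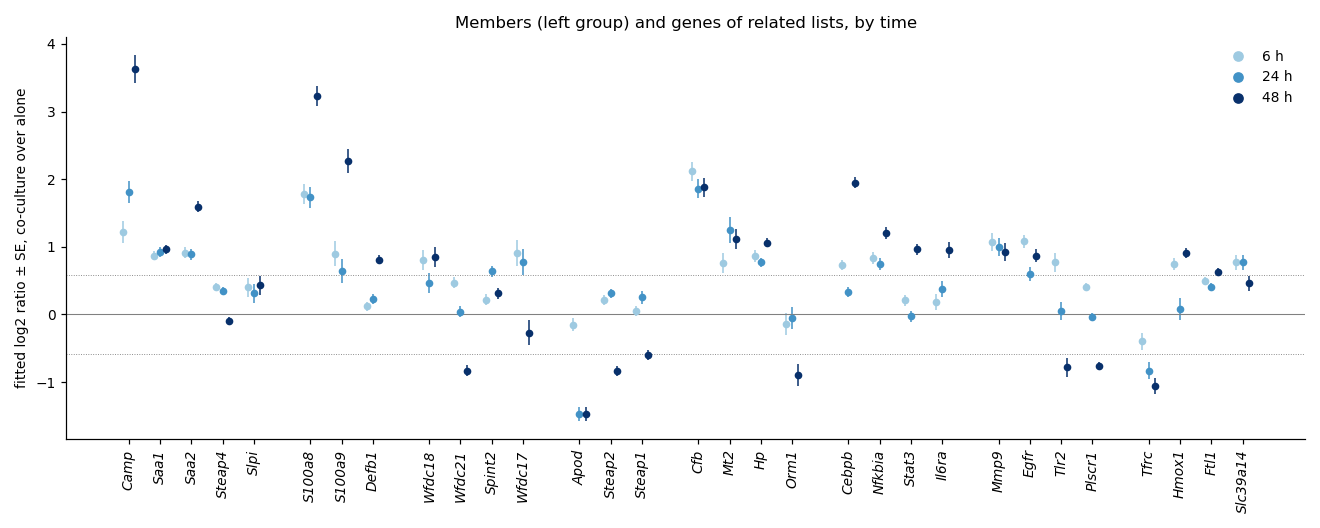
Fitted log2 ratio of co-culture over alone with its SE (vertical axis) at 6, 24 and 48 h for 5 of the genes (left group) and for named genes of related lists. Dotted lines mark 1.5-fold. S100a8 (3.23) and S100a9 (2.27) were, after Camp (3.63), the highest values plotted at 48 h.

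Markers of other cells were read beside the 7 genes as well. Of 16 macrophage markers measured, 7, 2 and 6 were called higher in co-culture and 0, 0 and 2 lower at 6, 24 and 48 h, where 4.4%, 4.69% and 14.6% of all genes were higher and 16.8% lower at 48 h. Their median was 0.44, 0.17 and 0.18, and their summed level over the 3 times ran from 24400 to 31200 in co-cultured cells and 19000 to 32900 in cells alone, with overlap at 24 and 48 h. Clec4d led them, with 1.74 ± 0.11, 1.36 ± 0.11 and 1.84 ± 0.11. It was above background on all arrays in both channels, as were Aif1, Arhgdib, Cd14, Cd53, Csf1r, Itgam, Itgb2 and Mpeg1. Ptprc and Spi1 were above it on 1 array in each channel, and the other listed macrophage markers on part of the arrays in at least 1 channel. Of 7 neutrophil markers, 3, 3 and 4 were higher and 0 lower, and their summed level at 48 h ran from 47700 to 55100 in co-cultured cells and 10000 to 11300 in cells alone. S100a8 and S100a9 are among those 7 and, like Csf3r, Elane, Itgam and Mmp9, were above background on all arrays in both channels. Mpo, Prtn3 and Fcnb were not above it on any array, and the other listed neutrophil markers on a few arrays at most. The part of RNA from the cells of the insert in these ratios was not tested.

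The genes whose ratios ran most like those of each member over the arrays were found among 1196 genes that varied and were complete. They are a description over arrays that share 3 slides, with no p. For Camp they were Irak2, Epha2 and Zfp352 (Pearson r of 0.987, 0.984 and 0.983 over 11 arrays), for Saa2 Il19, Spdef and Noct (0.924, 0.918 and 0.89 over 12), and for Steap4 Kcnj15, Sytl2 and Fabp4 (0.928, 0.902 and 0.896). For Saa1 they were Il33, Plk3 and Crct1 (0.767, 0.716 and 0.7), and for Slpi Ccr7, Il11 and Il1a (0.916, 0.838 and 0.83). For Lcn2 they were Trim12c, Mogat2 and Cck (0.908, 0.888 and 0.877 over 9) and for Saa3 Malat1, Urah and Usp17la (0.846, 0.838 and 0.821 over 8), over arrays that include ceiling values. Irak2 encodes a kinase of interleukin-1 receptor signalling, and Il19, Il33, Il11 and Il1a encode cytokines. Among the 7 themselves, Camp and Saa2 had an r of 0.82 over 11 arrays, Saa1 and Saa2 0.67 over 12, and Camp and Steap4 -0.60 over 11.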

How the data were processed

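The authors hybridised the 12 arrays and extracted them with Agilent Feature Extraction. Its version is given as 10.7.3.1 by the headers of the files, whereas the notes of the submitters name 10.5.1.1. In the deposited scanner files each spot has linear intensity values for both channels and their local backgrounds, processed intensities, a log10 ratio of Cy5 over Cy3, and other columns, flags for outlier, saturated and well-above-background spots. The deposited table of values held the same log10 ratio, with a largest gap of 0.00499.

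Median signals were background-corrected with normexp (offset 50) and normalized within arrays by loess in limma 3.58.1 (R 4.3.3, statmod 1.5.0, data.table version 1.17.8), followed by Aquantile for single channels. Spots flagged as outliers, or with a local background over 5 times the array median, were left out. Of 39429 probes, 27508 were named by accession through the RefSeq annotation GRCm38.p6. Saa1 and Saa2, whose symbols are synonyms of each other there, were matched by accession. Probes well above background, in 1 channel or both, on fewer than 3 arrays were dropped, and a gene was represented by its brightest probe. Time and treatment were additive terms on all 12 arrays (6 residual degrees of freedom), fitted with lmFit and eBayes. Adjusted p-values are limma's and two-sided. The number of arrays limits the precision, besides the limits named in the text. Likeness used genes measured on all arrays with an SD of at least 0.5.

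The 7 genes and the lists were chosen with earlier results of these data known. All 7 genes are named whatever their values. Of each list, at most 4 genes called at any time are named, those with the largest ratio at 48 h. A listed acute phase gene is not reported here and was left out of its list's counts. For the glucocorticoid-induced list they were those with the largest cortisol difference in cells alone. The fit was tested on simulated data. Alternatives covered background, scaling, filter, probe summary, weights, terms of the model, single times and left-out arrays. Promoter sequences are RefSeq's (GRCm38.p6) and were searched and aligned in Python 3.11.15, and figures were drawn with matplotlib 3.10.9.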

Additional observations from a re-analysis of the deposited data

Results flagged for a closer look

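In groups of 4 arrays, the level of Camp in co-cultured cells at 6 h was 14.24 on the NT array, against 13.92 to 13.96 on the other 3, a gap of 0.888 of the range. This was the brighter Camp probe, and the second had 12.47 on the NT array, the lowest of the 4, against 12.60 to 12.72. The level of Steap4 in cells alone at 24 h was 8.07 on the S array, whose cells alone carry a doubtful label, against 8.23 on each of the others (0.961 of the range). Chance marks about 1 in 20 such groups, and 51 were looked at.

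The co-culture ratio differed between times, by a test of the difference, for Camp (1.82 for 48 h over 24 h and 2.41 for 48 h over 6 h) and for Saa2 (0.70 and 0.68). Each time was on its own slide, so time and slide cannot be told apart for these differences.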

How the results depend on the processing

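Camp, Saa1 and Saa2 were called higher in co-culture at each time with each of the 12 arrays left out in turn (3 of 7 genes, range 3 to 3). Median centring in place of loess changed the most counts, which are given without the share of all genes called. It called 6 of 7 genes at each time, 6 for 48 h over 24 h (1 growing, 5 shrinking ratios) and 4 for 48 h over 6 h, reversed Lcn2 at 6 h (1.17) and 24 h (1.63), and turned 48 h over 6 h to -0.69 for Saa1, -0.88 for Slpi, -0.38 for Lcn2 and -0.62 for Saa3. The values of Lcn2 and Saa3 that involve 6 or 24 h come from spots at the Cy5 ceiling, so neither their size nor their sign can be read, here and in what follows. Array weights called 1 gene for 24 h over 6 h. All counts by changed settings in this paragraph, also those with arrays left out, are given without the share of all genes called. They cannot be set against one. For cells alone at 48 h over 6 h, where Camp alone was called, an offset of 16 gave 2 calls (Camp lower and Steap4 higher), median centring 2 (Saa2 and Steap4 higher, with Camp at -0.31 not called), and the quantile scaling, no filter and leaving out the 3 arrays in doubt 0. Leaving out single arrays gave 0 to 2 calls, of Camp, Steap4 or both. For cortisol in co-cultured cells, processed signals gave 1 call, leaving out the 3 arrays 0, and leaving out single arrays 1 to 2. Where arrays are left out, fewer arrays and fewer degrees of freedom enter. For the other changes the cause was not tested.

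Values near 0 changed sign, with changes under 1.5-fold. Lcn2 at 48 h was -0.03 with offset 16 and -0.17 with the processed signals and with the deposited ratios, and ran from -0.07 to 0.11 with single arrays left out. Saa3 at 48 h was -0.01, -0.34 and -0.34 in the same 3 settings, and at 6 h -0.36 with the processed signals and the deposited ratios, -0.01 with array weights, -0.08 with time alone and with only the arrays of that time, -0.05 with outlier spots kept, and -0.07 to 0.11 with single arrays left out. For 48 h over 6 h, offset 16 gave -0.03 for Saa3 and -0.01 for Slpi, and single arrays left out gave -0.06 to 0.12 and -0.17 to 0.16. Saa3 for cortisol over NT ran from -0.04 to 0.14.

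Keeping outlier spots and leaving out spots at the Cy5 ceiling were chosen after seeing the data. Mean signals in place of medians were not run, since the columns used here held median signals. No paired analysis was possible because the numbers of the arrays stand for treatments, which are already a term of the fit.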
